A study of Mus musculus with 40 samples.

Results

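The mature colonocyte genes described here are 10 genes listed by symbol, and all 10 were found among the 45706 genes of the deposited count and RPKM tables (RPKM, reads scaled by transcript length and by mapped reads, a level corrected for gene length). They were *Car1* and *Car4*, *Aqp4* and *Aqp8*, *Slc37a2*, *Guca2a*, *Alpi*, *Krt20*, *Ceacam20* and *Cdx2*. RNA-sequencing covered 40 libraries in 10 groups of 4. Epithelial cells (CD45-, EpCAM+), stromal cells (CD45-, EpCAM-), neutrophils and monocytes were sorted from colon tumors, epithelial and stromal cells from healthy colon, and neutrophils and monocytes from the blood of either kind of mouse. Counts on genes totaled 10717873 to 38002939 per library.

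Tumor-bearing mice carried the transgene Cdx2CreERT2 together with Apc fl/fl and received tamoxifen once, at 25 mg/kg into the peritoneum, at an age of 8 to 10 weeks according to the labels. The transgene is named after *Cdx2*, one of the 10 genes. Tamoxifen activates the Cre recombinase, which removes the floxed part of *Apc* in colon epithelium. Their strain label was C57Bl6/Sv129 in 1 library and ended in a different, rising number in each of the others, which was read here as the same mixed background. Healthy mice were labelled C57Bl6, with no transgene and no agent. Strain, transgene, tamoxifen and tumor therefore cannot be told apart in any comparison of tumor with healthy tissue. By their titles, 4 blood libraries pooled 2 animals, and tumor epithelial replicates 1 and 2 carried the same animal numbers as tumor stromal replicates 3 and 4, as healthy epithelial and healthy stromal replicate 4 did with each other. Tumor neutrophil replicate 4 shared its animal number with blood neutrophil replicate 2, and tumor monocyte replicate 1 with blood monocyte replicate 1. The tests treat all libraries as separate, and the p-values below measure the spread between these libraries.

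The colon surface is lined by absorptive colonocytes, which arise from dividing cells at the crypt base and mature as they move upward. Mature colonocytes take up water and salt, exchange chloride for bicarbonate with the help of carbonic anhydrases, and carry a brush border of microvilli. Wnt signaling keeps crypt base cells undifferentiated, and Apc is part of the complex that degrades β-catenin, the Wnt effector. Transcription factors such as Cdx2 maintain the intestinal identity of these cells. In bulk libraries, fewer cells of a type and less RNA per cell cannot be told apart.

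The sorted epithelial libraries were first checked against 8 pan-epithelial markers, such as *Epcam* and *Krt19*. Their summed level was 146 to 368 RPKM in tumor and 58.5 to 301 RPKM in healthy epithelial cells. Of the 8 genes, 0 were differentially expressed between them (edgeR, median log2 fold change -0.48). *Epcam* (-0.63, edgeR adjusted p = 0.0339) and *Krt19* (-1.29, edgeR adjusted p = 0.00856) were lower in tumor, but within the fold threshold given below. Healthy epithelial replicate 4 had the lowest summed level of the 8 markers. Mitochondrial genes took 83.9% of its counts and at least 46.3% of those of every epithelial library. The labelled stromal cells did not match their label equally well. Healthy stromal libraries held 455 to 2280 RPKM of 8 fibroblast markers, and tumor stromal libraries held 7.36 to 39.6 RPKM. In tumor stromal replicates 1 and 2 the pan-epithelial level was 104% and 56.8% of the tumor epithelial mean, so these libraries are called by their label only. *Apc* was measured at 6.2 ± 0.253 RPKM (SD, n = 4) in tumor and 2.08 ± 1.27 RPKM (SD, n = 4) in healthy epithelial cells. A level over the whole gene does not show whether the floxed part was deleted.

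To compare tumor with healthy epithelial cells, rounded counts were tested with the quasi-likelihood test of edgeR, and a gene was called differentially expressed where it changed by over 1.5 on the log2 scale with an adjusted p-value (Benjamini-Hochberg) under 0.05. Of the 10 colonocyte genes, 9 had enough counts for the test and 9 were lower in tumor. The genes were chosen with earlier results of these data known. Some reached enough counts mainly through the healthy libraries, such as *Car4* with 4 to 23 counts per tumor and 314 to 750 per healthy library. Their number beside the shares of all genes is therefore a description and not an independent test. Over all 16085 genes tested, 15.4% were differentially expressed and 7.88% were lower in tumor. The median log2 fold change of the 9 genes was -4.86, and that of all genes tested was -0.01. The levels of *Aqp8* were too low for the test, and its values are given below.

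**Figure D1:**
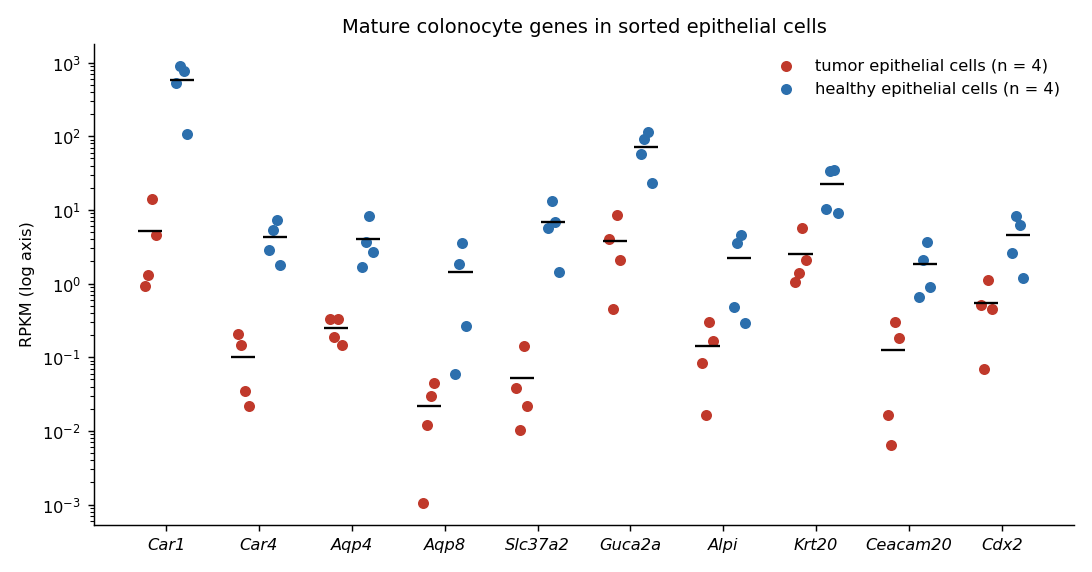
RPKM of the 10 colonocyte genes (log axis) in the 4 tumor epithelial (red) and 4 healthy epithelial (blue) libraries, each point 1 library with replicates 1 to 4 from left to right and each black line a mean. The libraries of both groups were apart for 9 genes and overlapped for *Alpi*.

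The carbonic anhydrases interconvert CO2 and bicarbonate, Car1 in the cytosol and Car4 on the outer face of the cell membrane. *Car1* (ENSMUSG00000027556, chromosome 3 from 14766216 to 14808368 of mm10) had 530, 901, 772 and 108 RPKM in healthy epithelial replicates 1 to 4. In tumor epithelial replicates 1 to 4 it had 0.913, 1.3, 14 and 4.55 RPKM. All tumor libraries lay below all healthy ones, and the group means, 5.2 ± 6.11 and 577 ± 349 RPKM (SD, n = 4), differed 111-fold. The log2 fold change was -7.44 (standard error, SE, 0.79, edgeR adjusted p = 1.28e-04). The pseudogene Gm16399 overlaps *Car1* on the same strand, and it is not given how reads on both were counted.

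*Car4* (ENSMUSG00000000805, chromosome 11 from 84957786 to 84966044) had 2.89, 5.25, 7.27 and 1.76 RPKM in the healthy and 0.206, 0.146, 0.0352 and 0.0218 RPKM in the tumor epithelial libraries. It was low in all 4 tumor libraries, with no overlap (log2 fold change -5.98, SE 0.77, edgeR adjusted p = 3.77e-04). The other carbonic anhydrases were taken as a family of 14 genes, of which 7 were tested, 5 fell and 0 rose. *Car2*, a cytosolic enzyme, went from 54.5 ± 35.6 RPKM in healthy to 2.25 ± 1.32 RPKM in tumor epithelial cells (SD, n = 4, log2 fold change -5.09). *Car12*, a membrane enzyme, had a log2 fold change of -3.88 and *Car8*, a relative without catalytic activity, of -4.53.

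Water crosses colonocytes partly through aquaporins. *Aqp4* (ENSMUSG00000024411), a channel of the basolateral membrane, had 1.69, 3.61, 8.23 and 2.71 RPKM in healthy and 0.333, 0.191, 0.33 and 0.147 RPKM in tumor epithelial cells. Every tumor library was below every healthy one (log2 fold change -4.86, SE 0.60, edgeR adjusted p = 2.9e-04). An antisense gene, AC133525.2, overlaps it, and since strand use is not stated their reads cannot be separated.

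*Aqp8* (ENSMUSG00000030762, chromosome 7 from 123462291 to 123468004) encodes a channel found near the apical surface of surface colonocytes. It had 0.0597, 1.84, 3.55 and 0.267 RPKM in healthy epithelial cells, and 0.00105, 0.0121, 0.0296 and 0.0441 RPKM in tumor epithelial cells. The highest tumor library was just below the lowest healthy one, with 12 counts over all tumor and 535 counts over all healthy libraries. The means, 0.0217 and 1.43 RPKM, differed by a factor of 65.9 (two-sided exact permutation test, p = 0.0286, the smallest that 70 arrangements of 4 against 4 libraries allow). Healthy replicate 1 was far below replicates 2 and 3, so that the spread within healthy libraries was nearly as large as the difference. Of 10 other aquaporins, 2 were tested and 1 fell, *Aqp1*, at -1.89 on the log2 scale (edgeR adjusted p = 0.00699).

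Slc37a2 is a membrane exchanger of sugar phosphates and phosphate. *Slc37a2* (ENSMUSG00000032122, chromosome 9 from 37227585 to 37255738) had 5.68, 13.4, 6.9 and 1.43 RPKM in healthy and 0.038, 0.0103, 0.142 and 0.0218 RPKM in tumor epithelial cells. It was nearly absent from all 4 tumor libraries, with 88 counts in all against 8972 counts. Its log2 fold change of -7.55 (SE 0.63, edgeR adjusted p = 3.99e-05) was the largest in size of the 9 genes. The antisense genes Gm10177 and Gm48081 overlap it. Of the 3 other Slc37 genes, *Slc37a1* fell (-1.79), and *Slc37a3* had a log2 fold change of 0.18 (edgeR adjusted p = 0.841).

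Guanylin, the product of *Guca2a*, is a peptide secreted into the lumen that binds guanylate cyclase C and so promotes the secretion of chloride and bicarbonate. *Guca2a* (ENSMUSG00000023247, chromosome 4 from 119637704 to 119639471) had 58, 91, 113 and 22.9 RPKM in healthy and 4.06, 0.456, 8.58 and 2.09 RPKM in tumor epithelial cells. It remained the second most abundant of the 10 genes in both groups, and the groups did not overlap (log2 fold change -4.90, SE 0.62, edgeR adjusted p = 3.68e-04). The 7 other genes of the guanylin pathway were all tested, and 6 fell while 0 rose. These included the receptor *Gucy2c* (-3.52), the chloride channel *Cftr* (-2.77) and the chloride and bicarbonate exchanger *Slc26a3* (-6.34).

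*Alpi* (ENSMUSG00000079440, chromosome 1 from 87098002 to 87101606) encodes intestinal alkaline phosphatase, a brush border enzyme that removes phosphate from bacterial lipopolysaccharide. It had 0.484, 3.53, 4.56 and 0.288 RPKM in healthy and 0.0825, 0.0163, 0.297 and 0.167 RPKM in tumor epithelial cells. It was the only one of the 10 genes whose groups overlapped in RPKM, because tumor replicate 3 was slightly above healthy replicate 4 (two-sided exact permutation test of the means, p = 0.0571). On normalized counts it was lower in tumor (log2 fold change -4.35, SE 0.77, edgeR adjusted p = 0.00245). *Akp3*, a close paralog in the same family whose reads could in part be shared, had a log2 fold change of 0.25 (edgeR adjusted p = 0.793), and *Alpl*, the tissue-nonspecific enzyme, rose by 4.57 on the log2 scale, from a mean of 0.00213 RPKM to 0.0919 RPKM.

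*Krt20* (ENSMUSG00000035775, chromosome 11 from 99428403 to 99438150) encodes an intermediate filament protein of surface epithelium. It had 10.3, 34, 35.3 and 9.18 RPKM in healthy and 1.06, 1.38, 5.63 and 2.08 RPKM in tumor epithelial cells. All tumor libraries were lower, and the log2 fold change was -3.88 (SE 0.47, edgeR adjusted p = 2.79e-04). Of the 5 other simple epithelial keratins tested, 0 fell and *Krt23* rose (4.38). *Krt8* and *Krt19* were not differentially expressed (-0.33 and -1.29, edgeR adjusted p = 0.318 and 0.00856, the second within the fold threshold).

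*Ceacam20* (ENSMUSG00000070777, chromosome 7 from 19965412 to 19991104) encodes an adhesion molecule of the microvilli. It had 0.654, 2.12, 3.68 and 0.898 RPKM in healthy and 0.0166, 0.00652, 0.304 and 0.181 RPKM in tumor epithelial cells. The tumor libraries fell into a pair near the detection limit and a pair about an order of magnitude higher, all below the healthy ones (log2 fold change -4.66, SE 0.88, edgeR adjusted p = 0.00352). Of 6 other Ceacam genes, 3 were tested and 3 fell, with *Ceacam1* at -3.68 and *Ceacam2* at -3.65. *Ceacam1* and *Ceacam2* are near-identical copies, and their separate values are uncertain.

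*Cdx2* (ENSMUSG00000029646, chromosome 5 from 147300805 to 147307270) encodes the homeobox factor named above. It had 2.57, 8.35, 6.17 and 1.19 RPKM in healthy and 0.507, 0.0702, 1.12 and 0.451 RPKM in tumor epithelial cells. Tumor replicate 3 came close to healthy replicate 4, without overlap. The log2 fold change of -3.66 (SE 0.57, edgeR adjusted p = 0.00118) was the smallest in size of the 9 genes. Among 20 other differentiation transcription factors tested, 10 fell and 0 rose. *Nr5a2* (-5.51) and *Isx* (-5.37), which regulate intestinal metabolism, fell most, whereas *Klf5*, a factor of crypt cells, was at 24.7 ± 5.15 RPKM in tumor and 26 ± 19.4 RPKM in healthy epithelial cells (SD, n = 4). *Cdx1*, the nearest relative of *Cdx2*, and *Hnf4a*, chosen after their values were seen, fell by 2.96 and 2.53 on the log2 scale.

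Within a group, the order of libraries was similar for most but not all of the 10 genes. Tumor replicate 3 was the highest tumor library for 7 of them and replicate 1 for 2, and the lowest was replicate 2 for 5, replicate 1 for 3 and replicate 4 for 2 genes. *Car4* was lowest in tumor replicates 3 and 4. In healthy epithelial cells, replicate 3 was the highest for 7 genes and replicate 4, the library richest in mitochondrial reads, the lowest for 7 (replicate 1 for 3). To set the levels against the amount of epithelial RNA, each RPKM value (plus 0.1) was divided by the geometric mean of the 8 pan-epithelial markers in the same library. The log2 ratio of *Car1* was then 4.27 to 5.24 in healthy and -4.17 to -1.41 in tumor epithelial cells, a difference of -7.54. All 10 genes were lower in tumor by this measure, from -7.54 for *Car1* to -3.06 for *Alpi*, and the groups were apart for 9 genes (two-sided exact permutation test, p = 0.0286 each) and overlapped for *Aqp8* (p = 0.0571).

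Related genes outside the 10 were described by lists. The lists share some genes, which are counted in each, such as *Slc26a3* in the absorptive and guanylin lists. Of 28 tested among the other absorptive transport and enzyme genes, 25 fell and 2 rose, with a median log2 fold change of -4.04. *Lypd8*, a secreted protein that keeps bacteria from the surface, was at 1440 ± 1240 RPKM in healthy and 66.6 ± 56.9 RPKM in tumor epithelial cells (SD, n = 4), and *Cyp2c55*, a cytochrome P450, had a log2 fold change of -8.54. The genes that rose were *Scnn1b* (3.92) and *Scnn1g* (5.42), subunits of the epithelial sodium channel, named after their values were seen. Their healthy levels were 0.0554 ± 0.0581 and 0.0139 ± 0.0124 RPKM (SD, n = 4), and their tumor levels 1.14 ± 0.239 and 0.858 ± 0.542 RPKM (SD, n = 4).

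Of 16 brush border genes, 8 fell and 0 rose. The microvillar cadherins *Cdhr5* (-3.82) and *Cdhr2* (-4.34) and the protease *Mep1b* (-5.33) changed most, while *Vil1*, which encodes the actin bundling protein villin, fell by 1.57 on the log2 scale. Genes of goblet cells, the secretory lineage, were lower as well. All 7 tested fell, with *Muc2* at 24.4 ± 15.5 RPKM in tumor and 491 ± 339 RPKM in healthy epithelial cells (SD, n = 4). Of 18 Wnt target and crypt base genes, 11 rose and 0 fell, led by *Wif1* (6.76) and *Nkd1* (6.32), both Wnt inhibitors induced by the pathway. *Cd44* was not differentially expressed (0.09, edgeR adjusted p = 0.779). *Myc* was higher in every tumor library than in every healthy one, but within the fold threshold (0.88, edgeR adjusted p = 0.00217). Its level was 16.9 ± 3.1 RPKM in tumor and 6.42 ± 3.63 RPKM in healthy epithelial cells (SD, n = 4). Among 12 proliferation genes 0 were differentially expressed (median -0.73), with *Mki67* at -1.01 (edgeR adjusted p = 0.00725, within the fold threshold).

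**Figure D2:**
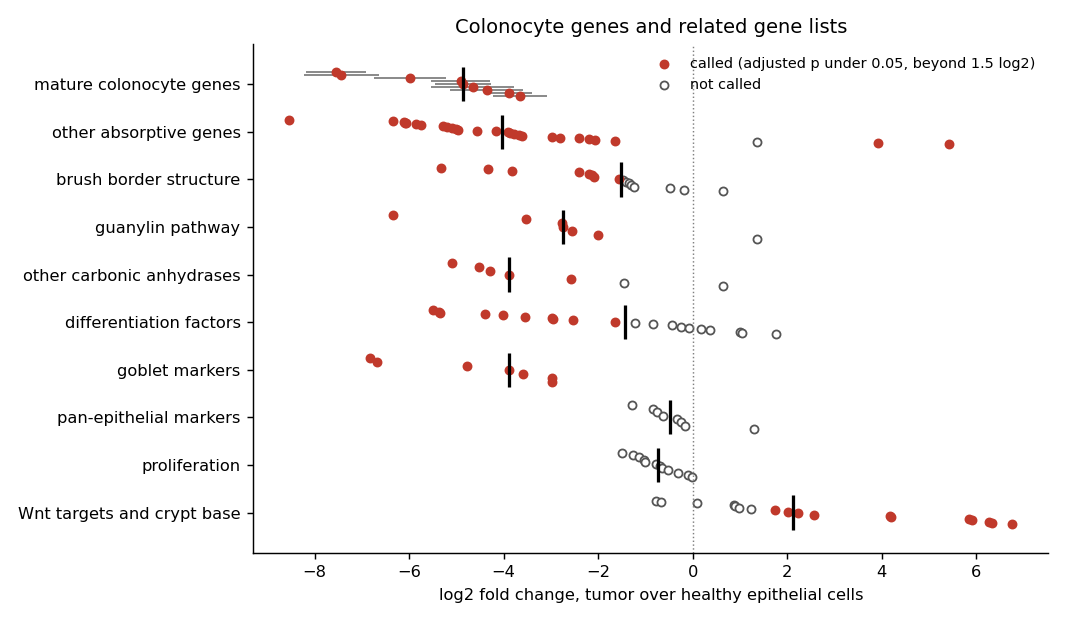
Log2 fold change between tumor and healthy epithelial cells (x axis) of each tested gene in 10 lists (y axis), with filled points for differentially expressed genes, black bars for list medians and, for the colonocyte genes, grey lines of 1 standard error. Median values were -4.86 for the colonocyte genes, -0.48 for the pan-epithelial markers and 2.12 for the Wnt targets.

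Markers of other cells also moved between these groups. The summed level of 6 monocyte markers was 27.1 to 152 RPKM in tumor and 3.66 to 14.9 RPKM in healthy epithelial libraries, and that of 7 erythroid markers 25.4 to 73.3 and 0.52 to 18.6 RPKM. The 8 fibroblast markers summed to 1.11 to 2.27 and 0.136 to 4.56 RPKM, and none of the genes of these 3 lists was at 0 in every library of either group. Among the tested genes of these lists, 1 monocyte marker of 6 rose (*Fn1*, 3.86), 0 of 5 erythroid markers changed, and of 5 fibroblast markers *Pdgfra* rose (3.52) and *Dcn* fell (-4.03). The 6 endothelial markers summed to 4.26 to 4.78 RPKM in tumor and 0.0659 to 0.373 RPKM in healthy epithelial libraries, with *Cldn5* at 0 in every healthy library, and of 3 tested *Cdh5* rose (4.62). The 8 genes of the response to tissue dissociation summed to 337 to 622 and 52.5 to 317 RPKM, and 0 of them was called. Of 4 smooth muscle markers tested, *Acta2* rose (2.32) and *Tagln* fell (-2.28). Of 5 leukocyte markers tested, 1 fell, *Cd52* (-3.78), and the median summed levels were 0.918 RPKM in tumor and 2.92 RPKM in healthy libraries. Of 4 neutrophil markers tested, 1 fell, *Retnlg* (-3.83), with overlap in RPKM, and the median summed levels were 3.26 and 10.6 RPKM. *S100a9* was not called, with means of 1.39 RPKM in tumor and 0.862 RPKM in healthy epithelial cells (log2 fold change -1.61). The part of these cells and of dissociation in the lower colonocyte levels was not tested. The ratios to pan-epithelial markers given above do not test this part.

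The upstream sequences of the 10 genes were looked at because these genes moved together and *Cdx2*, which encodes a DNA-binding factor, moved with them. RefSeq promoter windows of 250 bases before to 50 after the start (GRCm38.p6) were taken for 8 of the genes. The letters ATAAA, the core of the site bound by Cdx proteins, or TTTAT on the other strand, occurred in 5 of the 8 windows and in 40% of all 32851 promoter windows. In 3 of the 5, *Aqp8*, *Krt20* and *Ceacam20*, a match lay outside the overlapping TATA box letters TATAAA or TTTATA, which were in 3 of the 8 windows and in 13.6% of all. A match outside these letters was in 33.5% of all windows. In *Car4* the TATA box letters start 42 bases after the start of transcription. CTTTGAT or ATCAAAG, bound by the Wnt effectors TCF and LEF, occurred in 0 of the 8 windows and in 3.73% of all. CAAAGTCCA or TGGACTTTG, a site of HNF4 factors, occurred in *Alpi* alone and in 0.475% of all windows. The windows of *Krt20*, *Ceacam20* and *Alpi* are printed from 250 bases before the start up to it, on the strand of the gene, with capitals for ATAAA or TTTAT and, in *Alpi*, for CAAAGTCCA. *Krt20* and *Ceacam20* are shown for the letters outside a TATA box and *Alpi* for the HNF4 letters.
Krt20, chr11:99438154-99438403, minus strand: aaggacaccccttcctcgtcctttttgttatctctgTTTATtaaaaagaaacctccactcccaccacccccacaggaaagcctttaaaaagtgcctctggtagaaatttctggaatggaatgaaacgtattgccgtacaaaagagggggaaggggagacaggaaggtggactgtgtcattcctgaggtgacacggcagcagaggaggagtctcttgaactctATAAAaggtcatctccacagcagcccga
Ceacam20, chr7:19965162-19965411, plus strand: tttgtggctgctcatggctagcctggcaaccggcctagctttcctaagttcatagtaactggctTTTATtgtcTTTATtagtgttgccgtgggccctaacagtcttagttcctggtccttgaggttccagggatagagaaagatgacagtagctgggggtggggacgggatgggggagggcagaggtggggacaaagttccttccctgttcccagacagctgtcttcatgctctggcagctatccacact
Alpi, chr1:87101607-87101856, minus strand: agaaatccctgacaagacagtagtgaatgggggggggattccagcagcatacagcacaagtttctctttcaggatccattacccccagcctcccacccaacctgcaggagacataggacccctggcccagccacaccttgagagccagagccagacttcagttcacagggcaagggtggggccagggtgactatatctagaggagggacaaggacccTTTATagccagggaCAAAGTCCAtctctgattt
In *Krt20* the matches start 214 and 28 bases before the start of transcription, and the second belongs to a TATA box. *Ceacam20* has its matches 186 and 177 bases before the start. *Alpi* has TTTATA, the TATA box letters of the other strand, at 33 and the HNF4 letters at 19 bases before the start. These are matches of letters in a window and do not show binding.

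To see where in the healthy colon the genes were expressed, healthy epithelial and healthy stromal cells were compared. Of 9 genes tested, 8 were higher in epithelial cells and 1, *Car4*, was not differentially expressed. The genes were chosen as colonocyte genes, so this direction was largely set by the choice and is a description. *Krt20*, for example, had 86 counts over the healthy stromal and 10972 counts over the healthy epithelial libraries, and *Cdx2* had 23 and 2642 counts. Among all 18468 genes tested, 30.9% differed and 11.5% were higher in epithelial cells, and the medians were 6.67 for the 9 genes and -0.14 for all genes on the log2 scale. *Car1* had the largest log2 fold change, 9.06 (SE 1.63, edgeR adjusted p = 0.0021), and *Slc37a2* the smallest of the 8, 6.25 (SE 0.78, edgeR adjusted p = 3.44e-04). *Aqp8* was not tested, with 535 counts in the epithelial and 0 counts in the stromal libraries, which puts it at least 333-fold higher in epithelial cells if 3 counts over the group are taken as the limit that a count of 0 allows. That limit covers counting error only.

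*Car4* departed from the other genes. It had 3.3, 10.8, 8.15 and 0.963 RPKM in healthy stromal replicates 1 to 4, which overlapped with the healthy epithelial libraries (log2 fold change 0.46, SE 0.64, edgeR adjusted p = 0.617). The enzyme is also known from capillary endothelium. The 6 endothelial markers summed to 12.5 to 117 RPKM in the healthy stromal libraries and to at most 0.373 RPKM in the healthy epithelial ones, and their part in the *Car4* level was not tested. Healthy stromal replicate 4 stood apart. Its pan-epithelial level was 8.86% of the tumor epithelial mean, and it had the highest stromal value of *Car1*, *Krt20* and *Guca2a*, at 6.71, 0.665 and 2.14 RPKM.

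Between tumor epithelial and tumor stromal libraries, edgeR called 5 of 16985 genes (0.0294%) and DESeq2 called 1246, and 2507 had an unadjusted p-value under 0.05 with edgeR. Without tumor stromal replicates 1 and 2, the libraries richest in pan-epithelial markers, edgeR called 4471 of 19784 genes. Of the 9 colonocyte genes tested, 0 were differentially expressed with edgeR, 1 at an unadjusted p-value under 0.05 and 1 with DESeq2. The 1 gene was *Aqp4*, with 0.101, 0.0399, 0.00863 and 0.0148 RPKM in the tumor stromal libraries and a log2 fold change of 2.64 (SE 0.73, edgeR adjusted p = 0.128). It was called once tumor stromal replicate 1, the library with the epithelial level of pan-epithelial markers, was left out.

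The comparison of tumor with healthy stromal cells called 0 of 7 genes tested and 8.4% of all 19081 genes (edgeR). At an unadjusted p-value under 0.05, 4 of the 7 genes passed, and DESeq2 called 2. Among all 19081 genes, 4733 passed the unadjusted threshold with edgeR and DESeq2 called 2713. *Car4* had 0.00983, 0.0166, 1.24 and 0.446 RPKM in tumor stromal libraries against the values given above (log2 fold change -3.52, SE 1.31, edgeR adjusted p = 0.134). *Krt20* had 2.01, 0.973, 2.36 and 2.01 RPKM in tumor stromal libraries, and 0.00748, 0.0029, 0.00226 and 0.665 RPKM in healthy ones. Its log2 fold change was 3.74 (SE 1.55, edgeR adjusted p = 0.174), and that of *Cdx2* was 3.02 (SE 1.01, edgeR adjusted p = 0.0976). Without healthy stromal replicate 4, 4 colonocyte genes were called, and 1712 of all 19800 genes. The tumor stromal libraries carried pan-epithelial markers at 10.4% to 104% of the tumor epithelial mean, and their part in these values was not tested.

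Whether the change from healthy to tumor differed between epithelial and stromal cells was tested as an interaction over the 16 libraries of these groups. The colonocyte genes were chosen with earlier results known, and some reached enough counts mainly through the healthy epithelial libraries. *Aqp8*, for example, had 535 counts there and 12 in the tumor epithelial libraries. The number called is therefore a description and not an independent test. All 10 genes were tested, and 8 had a lower change in epithelial than in stromal cells. Over all 20901 genes, 14.1% were called in either direction and 1515 were called lower. The pan-epithelial markers moved in the same way, with 6 of 8 called lower and a median of -5.17 beside -6.69 for the colonocyte genes, as did 14 of 16 brush border genes. Pan-epithelial RNA in the tumor stromal libraries thus moved with this result, and its part was not tested. Without tumor stromal replicates 1 and 2, 7 of the 10 genes were called. The difference of the log2 fold changes was -7.58 for *Slc37a2* (SE 1.02, edgeR adjusted p = 2.6e-04) and -5.38 for *Alpi* (SE 1.15, edgeR adjusted p = 0.00532). *Car4* (-2.43, edgeR adjusted p = 0.322) and *Aqp4* (-4.02, edgeR adjusted p = 0.0597) did not pass the threshold. The epithelial and stromal comparisons with healthy tissue each have their own controls.

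**Figure D3:**
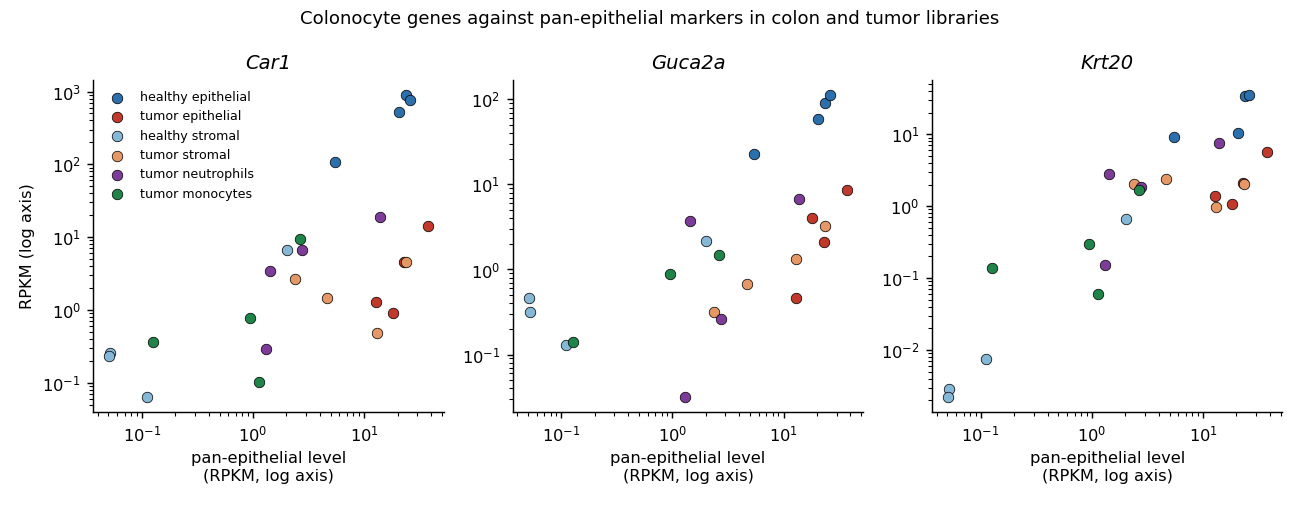
RPKM of *Car1*, *Guca2a* and *Krt20* (y axes, log) against the geometric mean of 8 pan-epithelial markers (x axes, RPKM, log) in the 24 libraries sorted from tumor and healthy colon, 1 point per library. Healthy epithelial libraries lie above tumor epithelial libraries of similar pan-epithelial level, with a *Car1* log2 ratio of 4.27 to 5.24 against -4.17 to -1.41.

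Colonocyte transcripts were also found in neutrophils and monocytes sorted from tumors. *Car1* had 18.8, 3.47, 6.73 and 0.289 RPKM in tumor neutrophils and at most 0.0307 RPKM in blood neutrophils of tumor-bearing mice. All 4 tumor libraries were higher, with 2115 counts against 3 counts, a ratio of 710 (95% interval 243 to 3450 from counting error only). Of 3 genes tested, *Car1* and *Krt20* were differentially expressed (edgeR adjusted p = 0.00159 and 0.00256), while 16.3% of all 13674 genes were. Both genes reached enough counts through the tumor libraries, with 3 and 6 counts over the blood libraries. The direction of these calls was therefore largely set by the filter, and their number is a description. *Krt20* had 7.46, 2.83, 1.85 and 0.153 RPKM in tumor neutrophils and at most 0.0301 RPKM in blood neutrophils. Tumor neutrophil replicate 1 was the highest for both genes, and its pan-epithelial level was 60.7% of the tumor epithelial mean. The log2 ratio of *Car1* to pan-epithelial markers in this library was 0.44, above the -1.41 of the highest tumor epithelial library.

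Tumor monocytes held fewer colonocyte transcripts. *Car1* had 0.365, 9.37, 0.101 and 0.772 RPKM there, and its difference from blood monocytes did not pass the test (log2 fold change 3.56, SE 1.31, edgeR adjusted p = 0.0905). Replicate 2 was far above the others, and its pan-epithelial level was 11.5% of the tumor epithelial mean. *Slc37a2* was the 1 of 2 genes tested that was differentially expressed, against 11.7% of all 15280 genes. It had 1.26, 1.44, 1.02 and 2.07 RPKM in tumor monocytes and 0.1, 0.121, 0.401 and 0.401 RPKM in blood monocytes of tumor-bearing mice (log2 fold change 2.72, SE 0.54, edgeR adjusted p = 0.00644). In contrast to the other 9 genes, its level in every tumor monocyte library was above that in every tumor epithelial library, at most 0.142 RPKM.

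*Slc37a2* was likewise the colonocyte gene with the highest levels in blood cells. In blood neutrophils of healthy mice it had 0.713, 0.579, 0.767 and 0.736 RPKM, and in those of tumor-bearing mice 0.148, 0.346, 0.109 and 0.136 RPKM. The groups did not overlap (log2 fold change -1.93, SE 0.39, edgeR adjusted p = 0.0178). It was the only colonocyte gene with enough counts for this test, in which 4.01% of all 13360 genes differed. The call was lost without blood neutrophil replicate 1 of tumor-bearing mice and without replicate 3 of healthy mice. In blood monocytes, *Slc37a2* and *Car1* were tested and 0 of the 2 differed between tumor-bearing and healthy mice (edgeR, 0.209% of all 15313 genes called), 0 also at an unadjusted p-value under 0.05 and 0 with DESeq2.

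**Figure D4:**
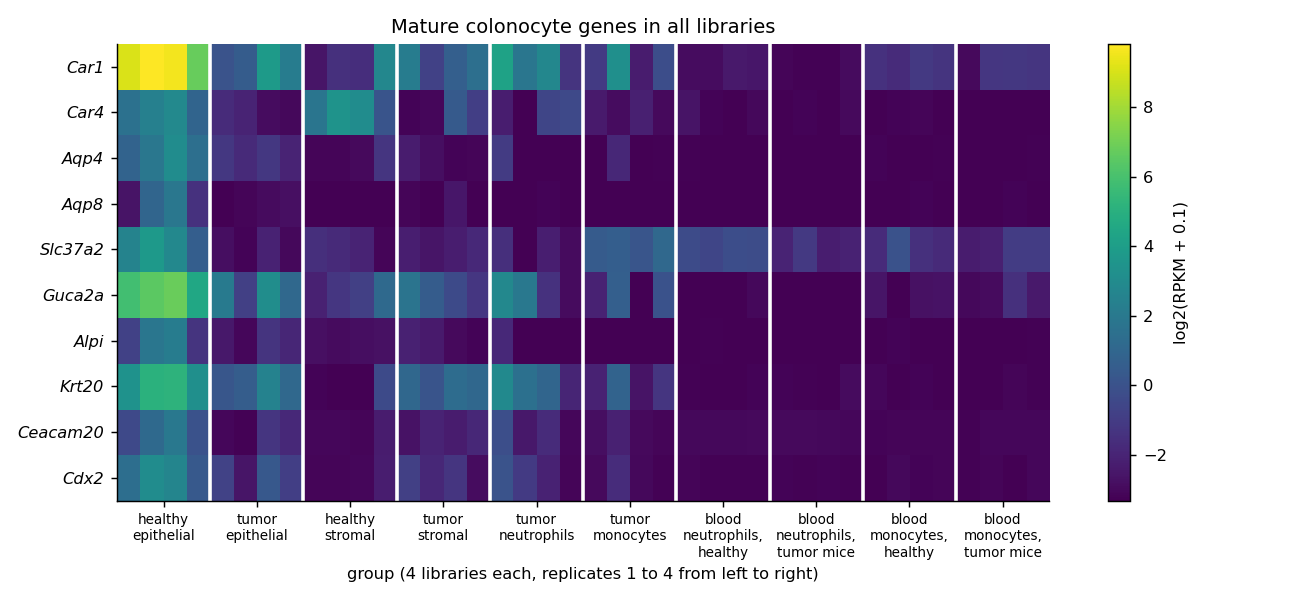
Level of the 10 colonocyte genes as log2(RPKM + 0.1) (color) in all 40 libraries, in 10 groups of 4 with replicates 1 to 4 from left to right. *Car4* is also bright in healthy stromal replicates 1 to 3 (3.3 to 10.8 RPKM), and *Slc37a2* is present in all 4 tumor monocyte libraries (1.02 to 2.07 RPKM), where *Car1* is bright in replicate 2 (9.37 RPKM).

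Over the 10 groups, 9 of the genes had their highest mean in healthy epithelial cells. The exception was *Car4*, at 5.81 RPKM in healthy stromal and 4.29 RPKM in healthy epithelial cells. These groups overlapped, and the healthy epithelial libraries were apart from tumor stromal cells, the next in order. For *Car1*, *Aqp4*, *Krt20*, *Guca2a* and *Cdx2*, the healthy epithelial libraries were apart from those of the next group, and for *Aqp8*, *Slc37a2*, *Ceacam20* and *Alpi* they overlapped with it. Tumor epithelial cells, tumor neutrophils and tumor stromal cells took the following ranks for most genes, and neighbors in that order overlapped.

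Across the 40 libraries, Pearson correlations of log2(RPKM + 1) between pairs of the 10 genes ranged from 0.44 (*Car4* with *Krt20*) to 0.97 (*Aqp8* with *Alpi*). These libraries share groups, so the values describe the pattern of groups. Among 13958 genes compared, the patterns most like *Car1* were those of Gm5843 (0.997), a pseudogene of the same chromosome region whose reads could be shared with *Car1*, and of *Gsdmc4* (0.986). *Krt20* was most like *Sprr2b* (0.992) and *Muc3* (0.989), and *Cdx2* was most like *Slc9a2* (0.985). The closest patterns to *Aqp8* and *Alpi* were led by the same gene, Gm11534 (0.981 and 0.987). *Slc37a2* had the lowest best match, *Slc51a*, at 0.904.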

How the data were processed

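RNA of sorted cells was amplified into double-stranded cDNA before library preparation, and reads were mapped by the authors to mm10, with Bowtie 2 cited. The authors deposited expected counts per Ensembl gene, without normalization, and RPKM values made from the same counts. The annotation release, the treatment of reads that map to several places and strand use are not given in the sources used here. Of the nonzero counts 99.6% were not whole, so counts were rounded. Identifiers of 45143 of 45706 genes were matched to GENCODE M21 symbols.

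Each comparison used the 4 libraries of each of its groups, filterByExpr, TMM normalization and edgeR 4.0.16 (R 4.3.3) with its quasi-likelihood test in the robust form, with Benjamini-Hochberg adjustment over all genes tested. The adjusted p-value threshold of 0.05 and the log2 fold threshold of 1.5 are those of the study, which named limma and voom. Mean RPKM values were compared by two-sided exact permutation tests over 70 arrangements, and ratios used a pseudocount of 0.1. Alternatives were DESeq2 1.42.0, limma-voom (limma 3.58.1), a model without the filter or with at least 10 counts in each library, RLE size factors, no mitochondrial genes, no fold threshold, the replicate number as a block, log2 RPKM values (pseudocount 1 or 0.1) in limma, all 40 libraries in 1 model, and each library left out. The fits were tested on simulated data.

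The 10 genes and the 23 other lists were chosen with earlier results of these data known. From each list, the 2 genes with the highest level and the 2 called genes with the largest change could be named, and genes named outside this rule are marked as such. Patterns most like a gene were taken among genes with a mean of at least 1 RPKM in a group. Where 2 tumor stromal libraries carried the same replicate number in the labels, 1 of them was numbered 4. Same-numbered libraries did not deviate together (correlations of their deviations -0.15 to 0.25), and the numbers were not used as pairs. Counting errors cover neither amplification nor differences between mice.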

Additional observations from a re-analysis of the deposited data

Results flagged for a closer look

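Of 59 combinations of a colonocyte gene and a group with at least 0.1 RPKM in a library, 14 held 1 library far from the other 3 by Dixon's test. Independent, normally distributed values would give about 3. The RPKM values were not logged and the combinations share libraries, so the 14 do not measure an excess over chance. Of these, 5 came from healthy stromal replicate 4, where *Car1* was at 6.71, *Aqp4* at 0.309, *Krt20* at 0.665, *Guca2a* at 2.14 and *Cdx2* at 0.106 RPKM. Tumor monocyte replicate 2 gave 4, with *Car1* at 9.37, *Aqp4* at 0.176, *Krt20* at 1.7 and *Cdx2* at 0.216 RPKM. Tumor neutrophil replicate 1 gave 2, with *Aqp4* at 0.381 and *Alpi* at 0.188 RPKM. These 3 libraries had the highest pan-epithelial level of their groups, at 8.86%, 11.5% and 60.7% of the tumor epithelial mean, and its part in these values was not tested. *Slc37a2* stood apart at 0.346 RPKM in blood neutrophil replicate 2 of tumor-bearing mice and at 0.875 RPKM in blood monocyte replicate 2 of healthy mice, and *Car1* was low, at 0.0273 RPKM, in blood monocyte replicate 1 of tumor-bearing mice.

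The change from healthy to tumor tissue differed between epithelial and stromal cells for 8 genes by the interaction test of edgeR, with adjusted p-values from 2.6e-04 to 0.00652. As in the report, this number is a description. The difference of the log2 fold changes was -10.49 for *Aqp8*, -8.02 for *Car1*, -7.59 for *Krt20*, -7.58 for *Slc37a2*, -6.70 for *Ceacam20*, -6.68 for *Cdx2*, -6.11 for *Guca2a* and -5.38 for *Alpi*. The same test called 6 of 8 pan-epithelial markers lower (median -5.17), which were at 10.4% to 104% of the tumor epithelial mean in the tumor stromal libraries, and their part in these differences was not tested. For *Aqp8* the 4 healthy stromal libraries had 0 counts after rounding, so the size of its value depends on the prior count of the fit.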

How the results depend on the processing

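Between tumor and healthy epithelial cells, 9 or 10 colonocyte genes were called lower in every alternative but 2. Under at least 10 counts in every library, 5 of the 5 genes left were called, and with limma on log2(RPKM + 1) the changes of *Alpi* (-1.21) and *Ceacam20* (-1.22) were under the fold threshold. With a pseudocount of 0.1 the median of all genes shifted to 0.575, and 25.9% of all calls were lower in tumor against 51.2% before (38.3% with a pseudocount of 1, and 65.3% with at least 10 counts). With 1 library left out, 9 to 10 genes were called, and 9 to 10 were apart in RPKM and in the ratio to pan-epithelial markers. In healthy epithelial against stromal cells, 8 to 9 were called with 1 library left out and 0 of 1 tested with at least 10 counts, and *Car4* turned to -0.18 and -0.14 with limma on log2 RPKM (pseudocounts 1 and 0.1).

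Between tumor epithelial and stromal cells, 0 to 1 genes were called with 1 library left out, 1 with DESeq2 and 1 without tumor stromal replicates 1 and 2. Between tumor and healthy stromal cells, 0 to 4 were called with 1 library left out, 1 with limma-voom, 2 with DESeq2, 1 and 2 with limma on log2 RPKM (pseudocounts 1 and 0.1), 3 in the fit of all 40 libraries, and 4 without healthy stromal replicate 4, a choice made after seeing the data. For tumor against blood neutrophils the values were 2 to 4 with 1 library left out (4 without tumor neutrophil replicate 4 or blood neutrophil replicate 3 or 4 of tumor-bearing mice, where more genes passed the filter), 4 without a filter and 8 in the fit of all 40 libraries. For monocytes they were 1 to 3 (3 without tumor monocyte replicate 3 and 2 without each blood monocyte replicate of tumor-bearing mice), 3 without a filter, 0 with limma on log2(RPKM + 1) and 4 with all 40 libraries. For blood neutrophils they were 0 to 1, and 0 with limma on log2(RPKM + 1) and with all 40 libraries. The fit of all 40 libraries tested 22122 genes, more than each main fit. Its calls over all genes were 5995 instead of 2229 in tumor neutrophils and 2803 instead of 1781 in tumor monocytes. In tumor stromal cells they were 2267 instead of 1602. Whether the colonocyte genes moved beyond this general rise was not tested. The change between epithelial and stromal cells had 7 to 9 with 1 library left out. At least 10 counts in every library left 0 colonocyte genes to test in the neutrophil comparison and in that change. The cause of these shifts was otherwise not tested. The single-gene results followed here were fold changes and permutation tests of RPKM and of ratios, the latter with a threshold of p under 0.05. Under the alternatives other than leaving out 1 library, 388 kept their direction and their side of the threshold. Another 17 passed it only there, 10 no longer passed it and 2 turned. For the ratios, 1 alternative, a mean of at least 1 RPKM in a group, held for every gene and repeats the main value. Values printed in the report are among these results. Uncalled values not printed there also crossed 0 over the alternatives, between tumor epithelial and stromal cells for *Car4* (-2.76 to 1.57), *Krt20* (-0.13 to 0.58) and *Ceacam20* (-0.89 to 0.25), between tumor and healthy stromal cells for *Guca2a* (-0.34 to 2.63) and *Slc37a2* (-0.41 to 0.47), and in blood monocytes for *Car1* (-0.72 to 0.35) and *Slc37a2* (-0.80 to 0.36).

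With the replicate number as a block, 9 genes remained lower in tumor epithelial cells, 1 gene was called in stromal cells and 0 in blood neutrophils. The numbers did not pair the libraries, and a block of animal numbers was not run, and the block moved the count of calls over all genes from 2476 to 2267 in epithelial cells and from 2229 to 1407 in neutrophils. Low totals limit *Aqp8*, with 12 counts over the tumor epithelial libraries.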
